A study of Mus musculus with 5 samples.

Results

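Acetylation of histone H3 at lysine 9 (H3K9ac) was mapped by ChIP-seq in mouse striatal progenitor cells, and the peaks described here are those that were called with and without drug and lay far from any protein-coding promoter. A peak was a member when it overlapped a peak of the other condition by at least 1 bp and its centre lay more than 10 kb and at most 100 kb from the nearest start of a protein-coding gene's transcripts. There were 2313 members among the 34286 peaks of the DOP-treated list (6.75%, 95% Wilson interval 6.49% to 7.02%) and 2311 among the 33355 peaks of the untreated list (6.93%, 6.66% to 7.21%), 4624 in all. The members were thus chosen by measured values, the positions of the peak calls in both lists. Among all peaks, 80% of the DOP-treated list and 83.3% of the untreated list overlapped a peak of the other list, and these shares are the background from which the members were taken.

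The cells were the STHdh Q111 line, a conditionally immortalized line of Striatal Progenitor Cells that carries mutant huntingtin with an expanded glutamine repeat and serves as a cell model of Huntington's disease. All groups carried the mutant gene and were kept without serum for 24 h. The treated group (Q111 DOP, 2 samples) received 4 mM 4-deoxypyridoxine hydrochloride, an inhibitor of sphingosine-1-phosphate lyase, and the control group (Q111 SST, 2 samples, called untreated) received the vehicle DPBS. One IgG sample of Q111 cells was the negative control. The authors deposited 1 peak list per condition, so there was no replicate error and no test between conditions, and a cell line in 1 mutant genotype is the only model covered. Intervals given below cover the counting of peaks only, and because each member overlaps a member or shared peak of the other list, the 2 lists are not independent of each other.

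H3K9ac marks the start sites of active genes and also active enhancers, which are stretches of regulatory DNA that can act on a promoter from a distance. Acetylated nucleosomes usually flank the stretch that transcription factors occupy. A mark far from protein-coding genes can also lie at the promoter of a long noncoding RNA or a microRNA. No peak can be tied to a target gene by position alone, and the nearest gene is used below only as a name for the place. The labelled cell type was compared with marker genes first. Of 5 neural progenitor markers, 3 were marked at a start site (a peak centred at most 1 kb away) in both lists, Vim, Msi1 and Notch1, whereas Nes and Sox2 had none. This is near the share of all protein-coding genes marked in this way (51.4% and 50.9%), so the count does not set the cells apart as progenitors. Of 5 markers of mature striatal neurons only Ppp1r1b had one, in the DOP-treated list (score percentile 11.3), and of 5 glial markers only Mbp had one, also in the DOP-treated list (7.58). None of 5 markers of blood cells and microglia had one.

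The sequences of 6 members are printed to show what the class holds. They are from the DOP-treated list, on the plus strand of mm9, and each is 200 bp long. The first 5 are the highest-ranked members of loci described below, and capitals mark their CpG dinucleotides. The member assigned to Ppara (chr15:85501851-85502050) has 75.5% GC, that of Zfhx3 (chr8:111227878-111228077) 81.5% and that of Kcnrg (chr14:62267144-62267343) 77.5%. The member in Ppm1h's surroundings (chr10:122422481-122422680) has 77% GC and lies 200 bp from the start of the microRNA gene Mirlet7i. Its locus was chosen after the values were seen. The member assigned to Ezh2 (chr6:47601240-47601439) has 62% GC and lies just outside a tandem repeat that holds many other members.
Ppara: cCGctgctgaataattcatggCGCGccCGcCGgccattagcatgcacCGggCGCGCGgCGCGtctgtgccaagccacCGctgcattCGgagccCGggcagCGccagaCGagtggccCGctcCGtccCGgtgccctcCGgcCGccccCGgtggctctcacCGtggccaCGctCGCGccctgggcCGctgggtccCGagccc
Zfhx3: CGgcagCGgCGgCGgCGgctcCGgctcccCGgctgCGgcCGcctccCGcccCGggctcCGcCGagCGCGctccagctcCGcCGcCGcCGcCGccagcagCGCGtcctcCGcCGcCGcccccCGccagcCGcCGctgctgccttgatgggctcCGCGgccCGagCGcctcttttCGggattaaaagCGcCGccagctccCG
Kcnrg: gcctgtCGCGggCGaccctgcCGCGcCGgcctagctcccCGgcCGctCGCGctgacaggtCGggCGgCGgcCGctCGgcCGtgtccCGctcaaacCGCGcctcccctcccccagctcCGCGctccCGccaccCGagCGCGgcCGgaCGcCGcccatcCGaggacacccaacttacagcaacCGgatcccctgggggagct
Ppm1h: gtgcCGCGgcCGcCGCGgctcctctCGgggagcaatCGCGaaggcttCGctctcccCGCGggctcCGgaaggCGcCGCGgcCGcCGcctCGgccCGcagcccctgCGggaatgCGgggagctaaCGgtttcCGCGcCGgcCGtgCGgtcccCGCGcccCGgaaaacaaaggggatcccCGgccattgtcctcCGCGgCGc
Ezh2: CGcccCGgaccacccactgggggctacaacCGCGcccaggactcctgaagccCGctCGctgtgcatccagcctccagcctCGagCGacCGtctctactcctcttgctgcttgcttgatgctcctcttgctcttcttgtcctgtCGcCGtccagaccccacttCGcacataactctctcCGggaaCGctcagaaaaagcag
The member assigned to Epha2 (chr4:140843231-140843430) has 55% GC and holds one AP-1 motif (TGANTCA, read on both strands), marked in capitals. It ranks at 46.0 and was picked not for its rank but because few members hold this motif inside the peak.
Epha2: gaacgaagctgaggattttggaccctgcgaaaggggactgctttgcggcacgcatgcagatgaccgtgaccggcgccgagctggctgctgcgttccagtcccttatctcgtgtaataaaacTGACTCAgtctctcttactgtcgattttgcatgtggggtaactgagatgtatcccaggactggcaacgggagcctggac

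Windows of 200 bp midway between neighbouring members held the AP-1 motif more often than the members themselves, as given below, and 3 such windows are printed with the motif in capitals. The window in Nanos3's surroundings (chr8:86727424-86727623) lies between peaks whose centres are 740 bp apart and rank at 90.2 and 87.1 of 100 by score. That of Col5a1 (chr2:27720110-27720309) lies between peaks 442 bp apart, at 31.4 and 25.9. That of Igf1r (chr7:75166815-75167014) lies in an intron between peaks 658 bp apart, at 19.6 and 29.8.
Nanos3: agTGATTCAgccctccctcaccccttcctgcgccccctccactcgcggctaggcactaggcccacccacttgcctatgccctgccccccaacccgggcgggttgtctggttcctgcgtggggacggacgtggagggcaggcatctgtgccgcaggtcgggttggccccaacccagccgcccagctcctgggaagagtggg
Col5a1: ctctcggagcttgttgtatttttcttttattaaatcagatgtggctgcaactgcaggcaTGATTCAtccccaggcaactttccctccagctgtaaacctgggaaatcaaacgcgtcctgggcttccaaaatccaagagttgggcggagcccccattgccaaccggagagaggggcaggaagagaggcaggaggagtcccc
Igf1r: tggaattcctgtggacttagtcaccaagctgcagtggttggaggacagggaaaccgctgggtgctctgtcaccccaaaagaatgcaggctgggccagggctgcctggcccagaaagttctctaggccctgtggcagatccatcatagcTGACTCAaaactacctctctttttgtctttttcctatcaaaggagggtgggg

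Some members of high rank lay near microRNA genes. The share of members within 10 kb of such a gene was 3.76% in both lists, beside 3.06% and 2.97% of all peaks. The main mature microRNAs of 3 loci, chosen after their values were seen, are printed from RefSeq (GRCm38.p6), with the seed (bases 2 to 8) in capitals. The microRNAs let-7i and let-7a share 1 seed, although their genes lie on different chromosomes, and miR-23a, miR-27a and miR-24, from 1 gene cluster, have 3 different seeds.
mmu-let-7i-5p: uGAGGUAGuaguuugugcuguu
mmu-let-7a-5p: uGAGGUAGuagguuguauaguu
mmu-miR-23a-3p: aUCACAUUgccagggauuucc
mmu-miR-27a-3p: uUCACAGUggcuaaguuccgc
mmu-miR-24-3p: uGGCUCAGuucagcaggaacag

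Members ranked low in both lists by the authors' score, and a small number ranked near the top. The score is not defined in the lists, so only its percentile within a list is used, where 100 is the highest. Members had a median percentile of 27.2 (95% interval of the median 25.9 to 28.5, quartiles 13.8 and 50.8) for the DOP-treated list and 23.9 (22.6 to 25.5, quartiles 11.5 and 45.8) for the untreated list. Shared peaks within 1 kb of a start site had medians of 63.5 and 61.9, and shared peaks 1 to 10 kb away 37.95 and 35.55. Shared peaks beyond 100 kb had medians of 14.6 and 14.0. Peaks at the same distances as the members but found in 1 list had medians of 6.57 and 5.33. These ranks are a description, since a peak had to be called in both lists to be a member.

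**Figure D1:**
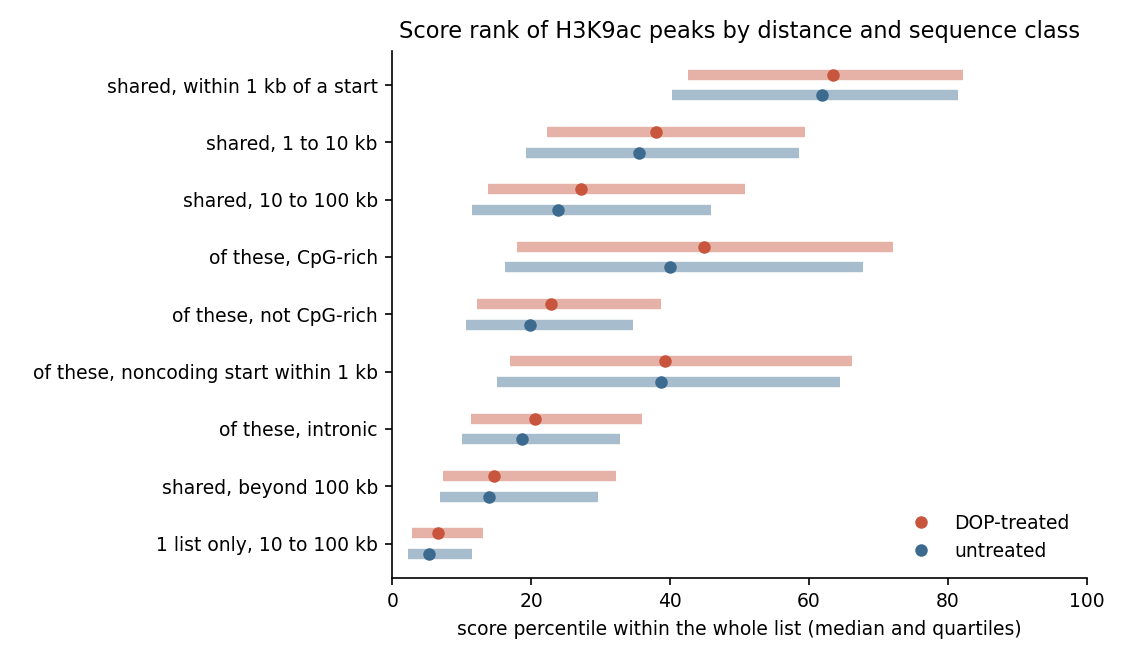
The horizontal axis gives the score percentile of peaks within their own list, with a point at the median and a bar from the lower to the upper quartile, for the DOP-treated (red) and untreated (blue) lists. Members (shared, 10 to 100 kb) had medians of 27.2 and 23.9, between those of shared peaks 1 to 10 kb away and of distal peaks found in 1 list, and the CpG-rich members stood above the other members.

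The top 10% of each list by score held 92 members of the DOP-treated list (3.98%) and 79 of the untreated list (3.42%). The bottom 25% held 1076 (46.5%) and 1191 (51.5%). Distance within the range made little difference to rank. Members 10 to 20, 20 to 50 and 50 to 100 kb from a start had medians of 26.2, 27.4 and 28.6 for the DOP-treated list and 22.1, 24.3 and 25.9 for the untreated list, with overlapping intervals. These bins held 768, 1027 and 518 members of the DOP-treated list and 773, 1019 and 519 of the untreated list.

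The peaks just inside and outside the distance limits are given once. In the DOP-treated list the peak nearest below 10 kb was assigned to Spata4 (9997 bp, percentile 11.7) and the first member above it to Rapgef1 (10003 bp, 28.4). The last member below 100 kb was assigned to Slc45a1 (99944 bp, 11.8) and the next shared peak to Nfatc2 (100044 bp, 39.4). In the untreated list the corresponding peaks were those of Klrb1c (9999 bp, 64.2), Agfg2 (10004 bp, 33.9), 2610044O15Rik (99973 bp, 31.1) and Nfatc2 (100039 bp, 32.7). The smallest overlap among members was 1 bp, at Gm17387, where the peaks ranked at 5.25 and 7.84.

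Most members lay between genes. In the DOP-treated list 1686 members (72.9%, 71.0% to 74.7%) were centred outside protein-coding genes and 589 (25.5%, 23.7% to 27.3%) in an intron, whereas 47% of all its peaks were centred in an intron. The untreated counts were 1679 (72.7%) and 594 (25.7%, 24.0% to 27.5%), beside 48.4% of all peaks. Coding exons held 24 and 26 members and untranslated exons 14 and 12. Distal peaks found in 1 list were in introns more often than members, at 39.0% (36.7% to 41.3%) and 41.1% (38.6% to 43.7%), and these intervals do not overlap those of the members. The intronic share fell with distance from the start, from 30.2% at 10 to 20 kb to 25.8% at 20 to 50 kb and 17.8% at 50 to 100 kb in the DOP-treated list. Untreated, it was 30.1%, 26.6% and 17.3%.

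**Figure D2:**
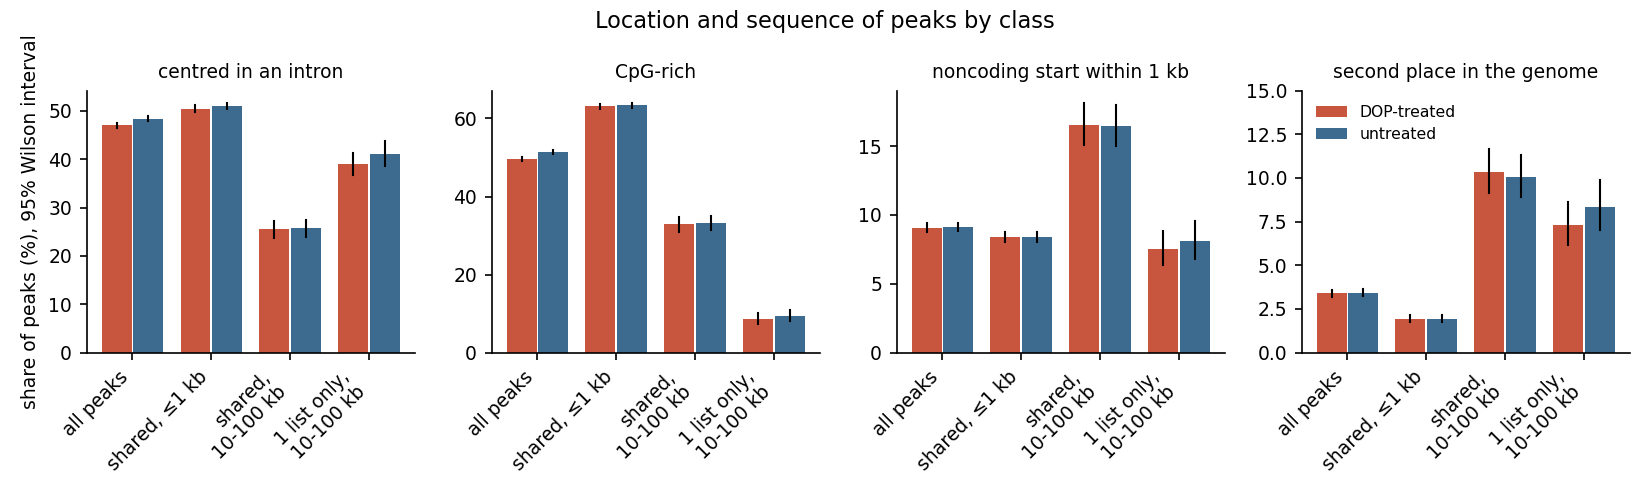
Bars give the share of peaks (%) with each of 4 features and lines the 95% Wilson interval, for all peaks, shared peaks within 1 kb of a start, members and distal peaks found in 1 list. Members were less often intronic (25.5% and 25.7%) than the other classes, and had a noncoding start within 1 kb or a second place in the genome more often, although for a second place the untreated interval overlaps that of distal peaks found in 1 list.

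Intronic members ranked lower than those between genes. Their median percentile was 20.5 (18.5 to 22.6) against 30.3 (28.7 to 31.6) in the DOP-treated list, and 18.7 (17.2 to 20.2) against 26.8 (24.99 to 28.01) in the other. The intron belonged to the gene with the nearest start in 495 of 589 cases (84.0%) and 499 of 594 (84.0%). Intronic members lay in 408 host genes for the DOP-treated list and 407 for the untreated list. Members between genes lay downstream of the nearest start in 40.7% and 40.0% of cases, and intronic members in 70.8% and 70.2%. The host genes named next were chosen after their counts were seen. Gm20388 held 9 members in each list (percentiles 14.9 to 89.3 and 14.1 to 86.8). Kirrel, an adhesion molecule of the immunoglobulin superfamily, held 5 in each (34.1 to 90.5 and 30.9 to 90.5). Mecom, a zinc finger transcription factor, held 5 and 6 (8.22 to 73.6 and 8.66 to 56.6). Mid1, a microtubule-associated ubiquitin ligase, held 4 in each list, and all of them ranked high (72.6 to 99.04 and 67.8 to 98.93).

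CpG-rich sequence, which is typical of promoters in mammals, was defined as at least 50% GC with an observed to expected CpG ratio of at least 0.6. Among members, 761 of the DOP-treated list (32.9%, 31.0% to 34.8%) and 767 of the untreated list (33.2%, 31.3% to 35.1%) were CpG-rich, beside 49.7% and 51.3% of all peaks. Shared peaks at start sites were CpG-rich in 63.1% and 63.3% of cases, and distal peaks found in 1 list in 8.66% and 9.39%. CpG-rich members ranked higher than the others, with medians of 44.9 (39.9 to 49.2) against 22.8 (21.4 to 24.2) for the DOP-treated list and 39.9 (35.95 to 43.85) against 19.9 (18.8 to 20.97) for the untreated list. They made up 72 of the 92 members in the top 10% of the DOP-treated list and 67 of 79 in the untreated list. They were in introns less often (13.0% and 12.8% against 31.6% and 32.1% of the other members).

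Members lay near the starts of noncoding genes more often than other peaks. Any noncoding gene of GENCODE started within 1 kb of 383 members of the DOP-treated list (16.6%, 15.1% to 18.1%) and 380 of the untreated list (16.4%, 14.99% to 18.01%), beside 9.09% and 9.11% of all peaks. The share was 7.53% and 8.07% among distal peaks found in 1 list. Of the CpG-rich members, 31.7% and 30.8% had such a start, against 9.15% and 9.33% of the others. Long intergenic noncoding RNA genes (lincRNAs) were the most frequent kind, with 128 and 126 members and median percentiles of 54.3 and 43.7. Pseudogenes came next by number (106 and 108) but had members of low rank, with medians of 9.85 and 9.84. Starts of processed transcripts were near 73 and 77 members, with medians of 53.4 and 45.2. Small nuclear RNA starts were near 29 and 26 members, with lower medians of 32.5 and 34.7. Starts of small nucleolar RNAs (snoRNAs) were near 17 and 16 members, from 9 gene names in each list, with medians of 64.6 and 65.0. MicroRNA starts were near 22 and 20 members, from 12 gene names in each list, with medians of 50.2 and 70.8. CpG-rich members with no noncoding start within 1 kb (520 and 531) also had a median rank above that of all members, at 45.2 and 38.4. Members with neither feature (1410 and 1400) had medians of 22.0 and 19.3.

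MicroRNA genes were also searched within 10 kb, since they are cut from longer transcripts that can start some way off. Of 1577 microRNA genes, 69 had a member within 10 kb in each list. There were 87 such members in each list (3.76% of members in both), beside 3.06% and 2.97% of all peaks, and their median percentiles were 46.3 and 41.1. The loci of this paragraph and the next were chosen after their values were seen. At Mirlet7i, 4 members of each list lay within 1 kb of the start of the annotated hairpin. In the DOP-treated list they lay at 200 bp and 121 bp downstream of it and at 522 bp and 568 bp upstream, in gene Ppm1h's and Mon2's surroundings, with percentiles of 76.0 to 92.5. Their untreated percentiles were 76.9 to 98.3. At Mir193 the member nearest the start lay 120 bp away in the DOP-treated and 38 bp away in the untreated list, and the highest one ranked at 96.4 in the DOP-treated and 96.5 in the untreated list. At Mir760 the members of the DOP-treated list lay 22 bp and 459 bp from the start, with percentiles of 97.9 and 90.9, and those of the untreated list 40 bp and 317 bp from it, with 89.5 and 94.3.

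Upstream of Mirlet7a-1 the high members stood away from the hairpin. In the DOP-treated list members at 7.27, 7.97 and 8.04 kb upstream ranked at 83.0, 68.7 and 94.2. In the untreated list members at 7.23 and 8.02 kb upstream ranked at 85.9 and 99.3. At Mir23a, which heads the cluster with Mir27a and Mir24-2, 5 members of the DOP-treated list lay 4.52 to 7.39 kb upstream, with percentiles of 78.9 to 95.6. In the untreated list members lay 4.42 to 7.37 kb upstream, with percentiles of 58.4 to 99.3. These members are among the 12 in each list that the nearest-gene rule gives to Nanos3. That gene encodes a germ cell RNA-binding protein and had no peak within 1 kb of its start in either list.

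**Figure D3:**
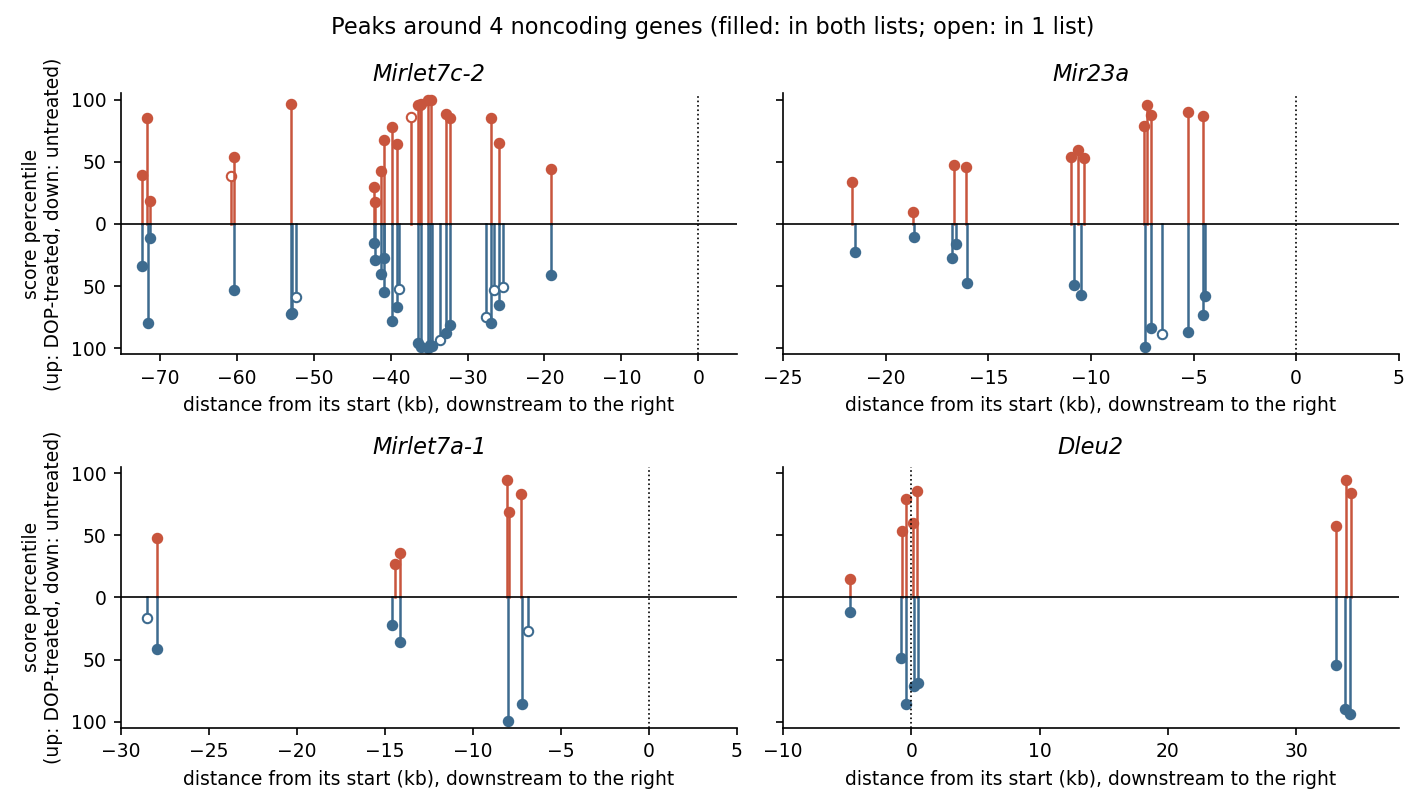
Each stem is a peak, placed by its distance (kb) from the annotated start of the noncoding gene (dotted line) and drawn to its score percentile, upward for the DOP-treated and downward for the untreated list, with filled points for members and open points for peaks found in 1 list. At Mir23a and Mirlet7a-1 the highest stems stand 4.42 to 8.04 kb upstream, and at Dleu2, measured from its most upstream start, the highest stems stand 33.9 and 34.2 kb downstream.

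Dleu2, a host gene of microRNAs with several annotated starts, was also chosen after its values were seen. The members around it, 8 in each list, were all assigned to Kcnrg, a regulator of potassium channels with no promoter peak in either list. Within 1 kb of the most upstream start of Dleu2, 4 members of the DOP-treated list had percentiles of 53.2 to 85.4, and 4 of the untreated list 48.7 to 85.8. Another 3 in each list lay about 34 kb downstream of it, within 1 kb of another start, and held the highest one (percentiles of 57.6 to 94.3 and 54.7 to 93.8). The last, 4808 and 4801 bp upstream, ranked low (14.5 and 12.1). All 16 members assigned to Kcnrg over both lists were CpG-rich.

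Members formed short runs. Chained where centres lay within 1 kb of the next, the 2313 members of the DOP-treated list made 1715 clusters and the 2311 of the untreated list 1713. Clusters of more than 1 peak numbered 469 in each list (27.3% and 27.4%) and held 46.1% and 46.2% of members. Of these, 368 and 373 were pairs, and the largest cluster had 6 and 7 peaks. Neighbours within 1 kb lay a median of 379 and 368 bp apart, and the 100 bp bin with the most of them was 300 to 400 bp (141 and 146 of 598). Members in clusters ranked higher than single ones, with medians of 40.5 against 17.8 for the DOP-treated list and 38.01 against 15.9 for the untreated list. With any peak of the list counted as a neighbour, 53.4% of members had one within 1 kb in each list, beside 91.3% and 91.2% of shared peaks at start sites and 37.1% and 40.3% of distal peaks found in 1 list. When members of both lists were chained together, 1709 of 1715 loci held members of both. Since a member overlaps a peak of the other list by rule, this count largely restates how members were chosen.

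The 3 longest clusters of the DOP-treated list were assigned to Ppara, Arhgap5 and Mzt2. That of Ppara (chr15:85494834-85498000) spanned 3167 bp with 6 peaks, and in the untreated list 3149 bp with 7. That of Arhgap5, a GTPase-activating protein, spanned 2310 bp and 2249 bp with 5 peaks in each. That of Mzt2, a component of the microtubule nucleation machinery, spanned 2002 bp with 4 peaks.

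The 1364 nearest genes of each list (1362 of them in both) make up 6.1% of the 22367 protein-coding genes. Of these genes, 853 and 846 had 1 member, 207 and 202 had at least 3 and 26 in each list had at least 6. A peak within 1 kb of a start of the nearest gene was found for 1511 members of the DOP-treated list (65.3%, 63.4% to 67.2%) and 1490 of the untreated list (64.5%, 62.5% to 66.4%). Counted by gene, 66.5% and 65.8% of the nearest genes had a promoter peak, beside 51.4% and 50.9% of all protein-coding genes. The share was higher for intronic members (77.9% and 78.6%) than for those between genes (60.7% and 59.5%). It was lower for CpG-rich members (58.3% and 57.0%) than for the others (68.8% and 68.2%). For distal peaks found in 1 list it was 70.4% and 70.8%.

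Ppara, a nuclear receptor that regulates fatty acid oxidation, was nearest to the most members, 16 in the DOP-treated and 17 in the untreated list. All of them lay upstream, 47.5 to 70.5 kb from its start, with percentiles of 17.8 to 99.8 and 15.7 to 99.7. The Mirlet7c-2 hairpin starts between them and Ppara, and the highest member stands 35.1 kb upstream of it. Pdia4, a protein disulfide isomerase of the endoplasmic reticulum, had 16 and 15, and Ezh2, the methyltransferase of H3K27, had 11 in each. Nanos3 had 12 in each, 10.3 to 27.5 kb upstream. Gm15319 had 10 in each, and all 20 had a second place in the genome. The gene 1700001O22Rik had 10 and 9, Arhgap5 and Rpl30-ps6 each had 9 and 9, and Chd2, a chromatin remodelling enzyme, had 8 and 8, all upstream, a count that Kcnrg shared. Of these genes, Kcnrg left aside, Nanos3, Gm15319, 1700001O22Rik and Arhgap5 had no promoter peak in either list, and Rpl30-ps6 had one in the DOP-treated list alone.

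The members with the highest mean percentile were led by repeated sequence and by the ends of chromosomes. The first was assigned to Gm5614 (chr9:35112938-35113137), ranked at 99.99 in both lists, and its surroundings aligned at 7 other places of the assembly. The next 3 were assigned to Gm15319 (chr8:19892554-19892753 and chr8:20019783-20019982) and 4930467E23Rik (chr8:19784857-19785056), with 3, 4 and 2 other places. The member assigned to Cr2, a complement receptor (chr1:197067831-197068030), ranked at 99.92 and 99.96 and lies 127 kb from the end of its chromosome. That assigned to Gm6020 (chr19:61275562-61275761) ranked at 99.87 and 99.92 and lies 66.7 kb from the end. The member assigned to Scaf8 (chr17:3084208-3084407) has 1 other place and lies 124 bp from the start of Pisd-ps2. Those of Ppara (99.8 and 99.7), Zfhx3 (99.1 and 99.6) and Chd2 (99.2 and 99.3) have none. Of the 10 highest members, 5 had a second place in the genome, and 8 of the 30 highest.

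A second place in the genome (at least 80% of the 400 bp around the centre aligned with at least 90% identity) was found for 239 members of the DOP-treated list (10.3%, 9.16% to 11.6%) and 232 of the untreated list (10.0%, 8.88% to 11.3%). Among all peaks it was 3.39% and 3.43%, and among distal peaks found in 1 list 7.30% and 8.35%. How reads with several places were treated is not given in the sources used here, and the part of repeated sequence in the ranks was not tested. The largest group lay between Ezh2 and Pdia4 on chromosome 6. There 21 members of the DOP-treated list and 20 of the untreated list, all CpG-rich, each had at least 10 other places. They formed 17 groups in each list, spaced by a median of 4336 and 4332 bp (4249 to 5955 bp and 4255 to 5944 bp over 15 steps), in chr6:47605135-47728299, not counting 1 step of 54604 and 54642 bp that spans 50000 unknown bases. Their percentiles were 30.4 to 92.0 (median 81.1) and 14.9 to 79.9 (median 65.4), and they make up 21 of the 27 and 20 of the 26 members assigned to Ezh2 or Pdia4.

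Gene lists chosen for this tissue and line are described by how many of their genes were nearest to a member, beside 6.1% of all protein-coding genes. The counts are not adjusted for gene length or for the space around the genes. The list of AP-1 and immediate early genes had 9 of 24 (37.5%) in each list. Nr4a1, an orphan nuclear receptor, had 5 members in the DOP-treated list (percentiles 11.4 to 73.1) and 6 in the untreated list (9.26 to 51.0), all 12.4 to 20.8 kb upstream. Atf3, a stress-induced transcription factor, had 3 and 2 (25.6 to 63.2 and 18.1 to 76.5). Myc had 2 in each list about 51 kb downstream (76.4 and 80.1 in the DOP-treated list, 52.6 to 70.9 in the untreated list), and Klf6 had 2 in each list of low rank (10.4 to 22.2 and 8.37 to 20.2).

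The extracellular matrix list had 8 of 26 (30.8%) in each list. Col5a1, a fibrillar collagen chain, had 4 members in each, 21.5 to 27.9 kb upstream and none CpG-rich (25.7 to 31.4 and 20.6 to 24.3), and Col1a1, Col1a2 and Col4a1 had 1 each. Of the TGF-beta and BMP list, 7 of 24 genes (29.2%) had a member. Ski, a repressor of SMAD proteins, had 5 and 6 (38.001 to 62.7 and 28.1 to 49.96), and Smad6, an inhibitory SMAD, had 5 and 4 (14.7 to 60.4 and 10.4 to 71.3). Smad7 and the coreceptor Tgfbr3 had 3 in each list. Of the Hippo and TEAD list, 5 of 16 (31.3%) had one. Amotl2, a partner of YAP, had 4 in each list, all of low rank (9.10 to 24.4 and 6.74 to 19.5), and Cyr61, a secreted matrix protein, had 2 in each at 34.6 to 35.6 kb upstream (29.4 to 42.3 and 32.8 to 57.2). Tead4 and Vgll4 had 1 each, in introns.

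The actin and focal adhesion list had 7 of 32 (21.9%) in each list. Tns3 had 5 in each list (12.98 to 77.8 and 12.1 to 84.0), Tns1 4, Vcl 2 of very low rank (6.12 to 7.25 and 5.54 to 8.66) and Cald1 1. Of growth factors and receptors 4 of 22 (18.2%) had a member, led by the receptor Igf1r with 3 intronic ones in each list (19.6 to 41.0 and 16.5 to 31.6), with 1 each for Fgfr1, Fgfr2 and Hbegf. Of axon guidance genes 3 of 22 (13.6%) had one. Epha2, an ephrin receptor, had 4 and 5, all upstream (24.2 to 70.8 and 24.6 to 48.8), Nrp2 2 in each list and Sema3e 1.

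Genes of striatal and neural identity are given next. Of the neural progenitor list, 4 of 20 genes (20%) had one for the DOP-treated list and 3 (15%) for the untreated list. The receptor Notch2 had 4 in each list, all intronic and none CpG-rich (28.5 to 40.8 and 25.3 to 44.95), Nfib and Zbtb20 had 1 each of low rank, and Nfix had 1 in the DOP-treated list alone, 10.05 kb from a start and so near the lower limit. Of striatal regulators 3 of 23 (13.0%) had one. Zfhx3 had 4 in each list (18.4 to 99.1 and 17.5 to 99.6), Nr2f1 3 and 2 (11.1 to 52.7 and 17.4 to 64.8) and Nr2f2 1. None of 21 genes of mature striatal neurons had a member in either list. Of the astrocyte and oligodendrocyte list 2 of 14 had one (Mbp and Slc1a3), and of the blood and microglia list 1 of 12 (Ptprc). Of sphingolipid genes, the pathway that the drug acts on, 3 of 18 (16.7%) had one. Smpd3, a sphingomyelinase, had 2 in each list about 73 kb upstream (14.5 to 43.2 and 5.79 to 24.8), and Sgms1 and Sgpp1 had 1 each.

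Of 10 genes that the study names, in its experiments or from other work, 3 had members, beside 6.1% of all protein-coding genes. Tcf12, a basic helix-loop-helix transcription factor, had 3 in each list, about 21 kb upstream, with percentiles of 75.5, 20.4 and 47.1 for the DOP-treated list and 67.9, 22.5 and 37.9 for the untreated list. Tns1, a tensin that links integrins to actin, had 4 intronic ones in each list, with percentiles of 63.1, 39.4, 18.3 and 35.6 and of 57.6, 32.9, 22.9 and 18.2. Actb, encoding beta-actin, had 2 in each list about 22 kb upstream, at 58.7 and 48.1 and at 36.4 and 40.01. Sgpl1, Ahnak, Bcl2l11, Sp1, Hdac1, Hdac2 and Htt had none. With 1 list per condition no difference between these values can be tested.

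The rank of a member was close to that of its partner in the other list. The 2198 pairs of members that were each other's nearest peak had centres a median of 28 bp apart. Ranked among shared peaks only, their percentiles differed by a median of 0.20 (DOP-treated minus untreated, 95% interval 0.095 to 0.346), and the central 90% of pairs lay between -11.99 and 15.3. On the percentiles of the whole lists, used elsewhere, the median difference was 1.93. Pairs that differed by more than 20 percentile points among shared peaks made up 5.14% (113), beside 11.4% (2886) of all 25377 shared pairs. These shares are not on equal terms, since the members' median ranks on that scale were 16.5 and 15.7 and most member pairs had no room to fall this far. Spearman's rho was 0.9504 across the member pairs and 0.903 across all shared pairs, and close ranks were thus seen among shared peaks in general. This is a correlation across peaks that share libraries, and peaks are not replicates.

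**Figure D4:**
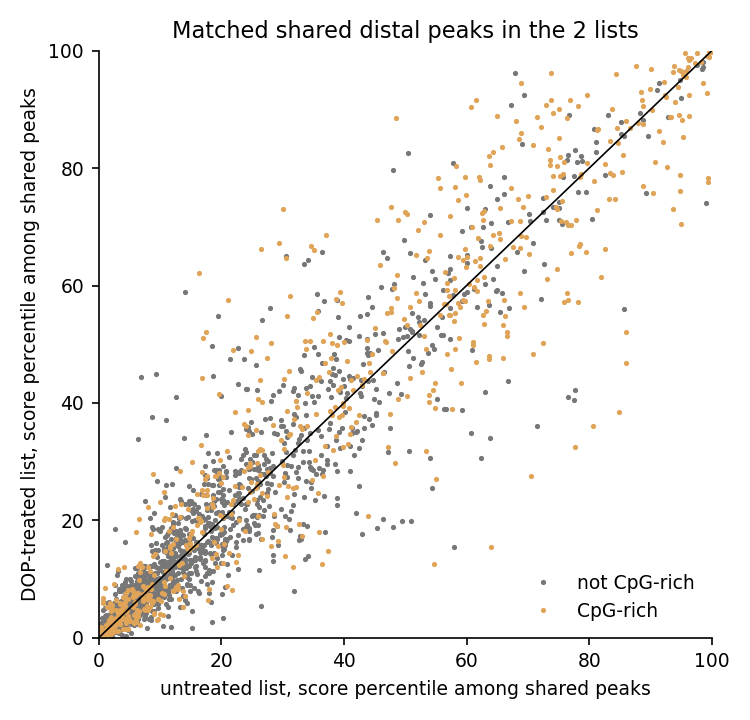
Each of 2198 points is a member pair, with the score percentile among shared peaks in the untreated list on the horizontal axis and in the DOP-treated list on the vertical axis, CpG-rich pairs in orange, and a line of equal rank. Most pairs lie along the line, and 113 lie more than 20 points from it.

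At 4 of the 6 pairs that differed most, 1 list had more calls at the locus than the other. Pairs at Gm8137 (62.1 in the DOP-treated list, 16.4 in the untreated list), Mkl2 (58.9 and 14.2) and Pdia4 (73.1 and 30.1) were the 3 highest in the DOP-treated list relative to the untreated list. Tex14 (15.5 and 64.0), Inpp5b (38.5 and 84.8) and 1300001I01Rik (32.5 and 77.7) were the 3 lowest. When the scores of all members of a locus were summed and loci ranked, the values became 79.99 and 78.6 at Gm8137, 78.8 and 76.1 at Mkl2, 92.6 and 87.3 at Pdia4, 78.5 and 82.6 at Tex14, and 87.2 and 87.5 at 1300001I01Rik. Inpp5b, an inositol polyphosphate phosphatase with 1 member in each list, kept a difference (69.1 and 89.99). Of the 1709 loci with members of both lists, 13 (0.761%) differed by more than 20 points. Without replicates no such difference can be assigned to the drug.

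Members seldom held the AP-1 motif TGANTCA, the binding sequence of FOS and JUN proteins, inside the 200 bp peak. It was present on either strand in 92 members of the DOP-treated list (3.98%, 3.25% to 4.85%) and 96 of the untreated list (4.15%, 3.41% to 5.05%), beside 3.38% and 3.03% of all peaks. Shared peaks at start sites held it in 2.24% and 2.17% of cases, and distal peaks found in 1 list in 10.2% and 8.01%. Members that were not CpG-rich held it in 5.15% and 5.51%, and CpG-rich ones in 1.58% and 1.43%. The share of members depended on the settings, with 11.7% and 11.8% in 400 bp windows. A longer window has more room for a match, so these 2 values cannot be set against the 200 bp shares of the other classes. Among members in the top 50% by score the share in 200 bp was 2.18% and 2.36%. Other motifs were searched the same way. The RUNX motif TGTGGT was in 11.8% of members of both lists (all peaks 8.50% and 8.42%), the E-box CAGCTG in 13.1% and 13.4% (11.4% and 11.1%) and the SOX motif ACAAAG in 12.2% and 13.2% (10.6% in both). The Sp motif GGGCGG was in 20.7% and 19.9%, below the 28.5% and 29.3% of all peaks. Distal peaks found in 1 list held more RUNX (14.5% and 15.4%), E-box (16.1% and 14.1%) and SOX (16.3% and 15.9%) than members. They held less Sp, at 8.21% and 8.28%. A match is a description of the letters and not a binding site.

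The sequence beside the peaks differed from the sequence under them. In windows of 200 bp placed at steps from the centre of members that were not CpG-rich, AP-1 was in 5.09% of windows at the centre, 12.1% at 200 bp to the left and 13.5% at 200 bp to the right in the DOP-treated list. The untreated shares were 5.51%, 12.2% and 14.0%. Distal peaks found in 1 list also had more beside the peak than under it, so this is not particular to members. Their shares were 10.4% at the centre, 13.7% to the left and 14.3% to the right in the DOP-treated list, and 8.07%, 14.6% and 13.6% in the untreated list. Windows at the centre and the peaks themselves could give slightly different counts. In the DOP-treated list, 79 such windows and 80 peaks of the 1552 members that were not CpG-rich held AP-1. The profile and the comparison that follows were added after the shares within peaks were seen. Places midway between neighbouring members that lay 400 to 1000 bp apart and were not CpG-rich numbered 131 in the DOP-treated list. Of these, 34 held AP-1 (26.0%, 19.2% to 34.1%), against 10 of 262 flanks (3.82%, 2.09% to 6.88%). Flanks are the peaks on either side of each place. A peak between 2 places is counted for both, as at Ppara in the DOP-treated list. Untreated, it was 31 of 130 places (23.8%, 17.3% to 31.9%) against 11 of 260 flanks (4.23%, 2.38% to 7.42%). The intervals of places and flanks do not overlap, but those of flanks treat a peak counted for 2 places as 2 peaks. Between neighbouring shared peaks at start sites that were not CpG-rich, 39 of 693 places (5.63%) and 40 of 710 (5.63%) held it. Their flanks held it less often, at 3.46% and 3.24%, with intervals that overlap those of the places. Between neighbouring CpG-rich members, 2 of 56 and 2 of 58 places held AP-1.

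**Figure D5:**
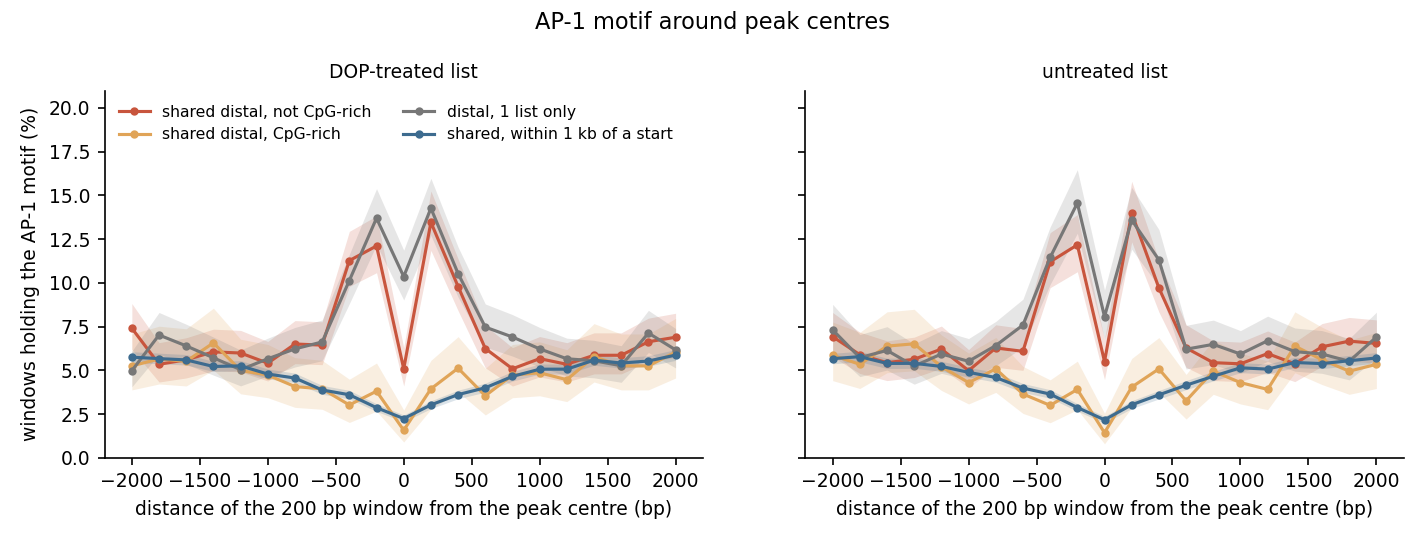
The vertical axis gives the share of 200 bp windows (%) with the AP-1 motif and the horizontal axis the distance of the window from the peak centre (bp), for 4 classes of peaks in each list, with shaded 95% Wilson intervals. Members that are not CpG-rich (red) dip to 5.09% and 5.51% at the centre between maxima of 12.1% to 14.0% at 200 bp on either side, and distal peaks found in 1 list (grey) have maxima at the same places. CpG-rich members (orange) and start-site peaks (blue) show no such maxima. Start-site peaks were not split by CpG content here, so their difference from the red curve cannot be told apart from CpG content.

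Genes with an AP-1 motif midway between neighbouring members that were not CpG-rich numbered 36 over both lists, and 24 of them had one in both. They include Nanos3, Col5a1 and Igf1r, whose windows are printed above. The number of genes with such neighbours is not given, so these counts have no share beside them. Members overlap a peak of the other list by rule, so genes found in both lists largely restate how members were chosen. Between these neighbours, for each of the 8 other motifs searched, the difference in percentage points between midway places and flanking peaks was smaller than for AP-1. Such a difference stays small for a rare motif, so it does not compare relative changes. In the DOP-treated list the rare ETS motif was in 5 of 131 places (3.82%, 1.64% to 8.62%). It was in 0 of 262 flanks (upper limit 1.45%), so these intervals do not overlap. Untreated, ETS was in 4 of 130 places (3.08%) against 0 of 260 flanks, with overlapping intervals. The TEAD motif GGAATG was in 16.03% of places against 9.54% of peaks for the DOP-treated list and 17.7% against 10.8% for the untreated list, with overlapping intervals. The Sp motif was in 23.7% against 11.1% and 23.1% against 9.62%. Between all neighbouring members the order was the other way, with Sp in 39.2% of places against 23.3% of peaks and AP-1 in 14.2% against 2.99% in the DOP-treated list, and 39.8% against 21.2% and 14.8% against 3.22% in the untreated list. Sp was also more frequent between neighbours at start sites that were not CpG-rich (39.8% against 14.4% in the DOP-treated list).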

How the data were processed

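H3K9ac ChIP-seq was made from 2 treated, 2 untreated and 1 IgG sample. The authors aligned reads to mm9 (the paper's methods name Bowtie 2, the submitters' processing notes BWA 0.7.10) and called peaks with GPS, while the deposited lists name GEM. The authors deposited 1 list per condition with interval positions of 200 bp (1 untreated peak is shorter) and a score. The paper's methods state smaller peak numbers, and the reason is not given in the sources used here. The threshold, the score's definition, and how the samples and the IgG sample entered the call are not given in the sources used here. The depth is unknown. The IgG sample and RNA-seq were not analysed here. The score was used by rank only.

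Start sites were those of every transcript of a protein-coding gene in GENCODE M1 on NCBIM37 (mm9). Peak centres were annotated in the order coding exon, untranslated exon, intron, outside protein-coding genes. A promoter peak lay within 1 kb of a start, and clusters chained centres within 1 kb. Second places were searched with minimap2 2.31 in 400 bp windows (80% covered, 90% identity). Shares carry 95% Wilson intervals and medians order-statistic intervals. Named genes were the 10 with the most members, those at the 10 highest members, up to 4 per gene list, genes that the study names, the 3 largest differences in each direction and the 3 longest clusters. Others are marked as chosen after their values were seen, and some genes that the rule names are not reported here. The members and lists were chosen with earlier results of these data known. Alternatives were other distance limits, overlap rules, start sites, score, chain, motif and promoter settings, and, added after seeing the data, protein-coding transcripts only and removal of peaks with a second place or local repeats. Overlap, distance and chaining steps were tested on simulated data. The scripts ran in Python 3.11.15 with matplotlib 3.10.9, pysam 0.24.0, pandas 2.3.3, numpy 2.4.6 and scipy 1.17.1. MicroRNA sequences came from RefSeq (GRCm38.p6), matched by gene name.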

Additional observations from a re-analysis of the deposited data

How the results depend on the processing

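Of 154 values recomputed for 14 results under 17 settings, 119 stayed near the reported value, which means within 1.5 times for a number of members, clusters or genes and within the 95% interval for a share or median. Values for the DOP-treated and the untreated list follow in that order. Restriction to peaks in the top 50% by score gave 595 and 509 members, 404 and 349 clusters, 337 and 288 nearest genes, an intronic share of 13.6% and 13.8%, a share with a promoter peak at the nearest gene of 59.5% and 59.5%, a median percentile of 69.2 and 69.0, and an AP-1 share of 2.18% and 2.36%. The lower numbers and the higher median percentile follow from that restriction itself, since it keeps only members above percentile 50. A lower limit of 20 kb gave 1129 clusters in each list, an intronic share of 23.1% and 23.5%, and 1538 untreated members. A lower limit of 5 kb gave an intronic share of 27.5% and 27.6%, and an upper limit of 50 kb 27.7% and 28.1%. Starts of any gene type gave an intronic share of 30.1% and 30.4%, a promoter share of 67.7% and 67.0% and a median percentile of 24.7 and 21.6. The AP-1 share was 2.77% and 2.94% with TGACTCA, and 11.7% and 11.8% in 400 bp windows, which have more room for a match than the peaks. With starts of protein-coding transcripts only, added after seeing the data, the intronic share was 28.6% and 28.8%. Leaving out peaks with a second place, also added afterwards, kept 2074 and 2079 members. A restriction to sequence outside soft-masked repeats was not run, because the assembly used here has no lower-case bases. The unknown depth and the undefined score limit every statement on rank. No paired analysis was possible because each condition has 1 list with no columns for its samples.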

Other observations

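Members were spread unevenly over the chromosomes. Chromosome 19 held the most per Mb (1.76 and 1.84), followed by chromosome 15 (1.53 and 1.51), and the X chromosome held 0.348 and 0.342. As a share of all peaks, however, members made up 6.996% and 7.063% on the X chromosome, near the 6.75% and 6.93% of the whole lists. The share was highest on chromosome 15 (9.40% and 9.99%) and, apart from the Y chromosome, lowest on chromosomes 7 (4.44% and 4.68%) and 11 (4.45% and 4.58%). The Y chromosome had 1 and 2 peaks and no member.

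Chained across gaps of up to about 13 kb, the members formed 1510 and 1509 stretches. The longest spanned 53367 and 53424 bp upstream of Ppara, with 21 and 23 members, and its nearest genes were Ppara and Wnt7b, a secreted WNT ligand. The next were at Pdia4 (48801 and 48775 bp, 16 and 15 members) and Ezh2 (34717 and 34714 bp, 11 in each).

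Outside the named genes, the microRNA cluster that starts with Mir17 had 2 members within 10 kb in each list. They ranked at 56.5 and 65.0 in the DOP-treated list and at 65.1 and 70.8 in the untreated list. Mir199a-2 had 1 in each list, 113 bp from its start in the DOP-treated list (84.6) and 121 bp in the untreated list (81.2). These were chosen after their values were seen.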
